A study of Homo sapiens with 8 samples.

Results

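Ribosome biogenesis factors are the nucleolar proteins that make, modify, cut and fold ribosomal RNA and load it with ribosomal proteins. RNA polymerase I transcribes a long precursor, box C/D and box H/ACA ribonucleoproteins guide its methylation and pseudouridylation, and 2 separate sets of assembly factors carry the small and the large subunit to export. Their genes are known to be raised together by growth signals, and MYC, which binds the E-box letters CACGTG, is a known activator of many of them. Described here are 48 such genes, taken by symbol from a list of nucleolar assembly factors; the rule uses no measured value, but the list was drawn up with earlier results of these data known. All 48 were found among the 22504 genes of the deposited table, and all 48 passed the filter on low values (at least 1 FPKM in at least 2 libraries), which kept 12996 genes. FPKM is the number of sequenced fragments scaled to transcript length and to the mapped fragments of the library.

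The material was U2OS, a human osteosarcoma cell line long in culture, and the sequenced RNA was enriched on oligo(dT) beads. GFP control cells and cells overexpressing the actin mutant G13R, a form known not to polymerise, were each taken in normal growth and after serum stimulation. This gave 4 groups of 2 libraries, 8 in all. The sources used here do not give the actin gene that carries the mutation, how it was delivered, how long serum was given or whether it was first withdrawn.

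Each library had between 12065 and 12568 genes at 1 FPKM or more and a summed FPKM between 496166 and 559496. ACTB, a cytoplasmic actin gene, lay between 2543 and 2779 FPKM in the 4 GFP libraries and between 7949 and 11245 in the 4 G13R libraries. Of 6 osteoblast lineage markers, 5 reached 1 FPKM in every library (summed level 434.3 to 827.6 FPKM), while the collagen gene COL1A2 stayed under 1 in each. Of 5 epithelial markers 3 reached 1 FPKM in every library, KRT8 among them. Of 5 leukocyte and 5 endothelial markers, 4 of each stayed under 1 FPKM in every library, and the endothelial marker PECAM1 was listed at 0. The GFP serum libraries differed from each other by over 2-fold in 186 genes, against 87 to 102 in the other groups. The labels do not tie the 2 libraries of a group to separate cultures; the p-values below therefore reflect library-to-library spread alone, and that spread may be technical.

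The genes were ordered by the known roles of their products: 5 box C/D proteins, 4 box H/ACA proteins, 15 factors of the small subunit, 17 of the large subunit, and 7 nucleolar and RNA polymerase I factors. Levels spanned a wide range. NPM1, which encodes the abundant histone and ribosome chaperone nucleophosmin, averaged 2557 FPKM over the 8 libraries, and NCL, which encodes nucleolin, 501. They were followed by NHP2 at 253, EBNA1BP2 at 216 and FBL at 196 FPKM. The lowest were UTP20 at 7.40, URB2 at 10.3 and RRN3 at 11.1 FPKM. Summed over the 48 genes, the GFP libraries held 7945 and 8186 FPKM before serum and 4834 and 4769 with it, and the G13R libraries 6420 and 6690, then 4842 and 4777. In GFP cells the sums fell from 1.46% of all FPKM in each normal growth library to 0.944 and 0.885% after serum. In G13R cells they fell from 1.29% in each normal growth library to 0.968 and 0.941%. NPM1 was the largest single part of each sum. Without NPM1 the GFP libraries held 4569 and 4667 FPKM in normal growth and 2755 and 2337 after serum. The G13R libraries then held 3822 and 4043 in normal growth and 2935 and 2879 after serum. In RNA from whole cultures, fewer cells that express a gene and less of its RNA per cell cannot be told apart, and FPKM is relative to all RNA of a library.

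Promoter letters were read because these genes moved together. RefSeq promoters of build GRCh38.p14, from 250 bases before to 50 bases after an annotated start, matched 40 of the 48 symbols. The E-box CACGTG, which reads the same on both strands, was found in 21 of the 40 (52.5%), against 1225 of the 9602 tested genes with a promoter entry (12.8%). It was in 26.6% of 64 other ribosome assembly genes, 7.25% of 69 cytosolic and 13.4% of 67 mitochondrial ribosomal protein genes. The 30-base windows below are from members of each role, 5′ to 3′ on the gene's strand, with the E-box in capitals.
RRP9: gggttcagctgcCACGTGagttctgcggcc
FBL: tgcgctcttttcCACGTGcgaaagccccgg
NOP10: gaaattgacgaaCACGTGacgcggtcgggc
WDR43: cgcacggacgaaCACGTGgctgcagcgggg
BYSL: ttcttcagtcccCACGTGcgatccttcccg
MRTO4: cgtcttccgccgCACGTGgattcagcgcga
PES1: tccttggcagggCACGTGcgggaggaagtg
GNL2: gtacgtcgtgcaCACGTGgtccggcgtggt
DDX21: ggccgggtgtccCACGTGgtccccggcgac

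The windows lie at chr3:51941892-51941921 (minus strand) for RRP9, chr19:39846356-39846385 (minus) for FBL and chr15:34343130-34343159 (minus) for NOP10. Those of the small subunit genes are chr2:28894658-28894687 (plus) for WDR43 and chr6:41921515-41921544 (plus) for BYSL. Those of the large subunit genes are chr1:19251807-19251836 (plus) for MRTO4, chr22:30591880-30591909 (minus) for PES1 and chr1:37595917-37595946 (minus) for GNL2. For DDX21 the window is chr10:68956604-68956633 (plus). With the start base counted as 1 and the base before it as -1, the E-box began at -5 in RRP9, 7 in FBL, -11 in NOP10, 4 in WDR43, 29 in BYSL, 15 in MRTO4, 14 in PES1, 4 in GNL2 and -31 in DDX21. Of the 24 E-boxes found in the members' promoters, 19 (79.2%) lay within 50 bases of the start, against 37.7% of the 1480 in promoters of all tested genes. The median GC content was 65.3% in members' promoters with an E-box and 64.7% over tested genes. The ETS letters CCGGAAGT, on either strand, were in 28.1% of the promoters of other ribosome assembly genes. They were in 15.9 and 17.9% of those of cytosolic and mitochondrial ribosomal protein genes. In the members' promoters the share was 22.5%, and in those of tested genes 9.88%. The GC box GGGCGG, which is common to housekeeping promoters, was in 77.5 and 77.2%, and the TATA letters TATAAA in 2.5 and 8.29%. These matches describe letters and do not show binding.

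Serum was compared with normal growth in GFP cells to see the response without the mutant. In GFP cells 47 of the 48 genes were called lower after serum and none higher, with 15.7% of all tested genes called lower and 14.9% called higher. By sign alone, the fold change lay below 0 in all 48, and in 6378 of the 12996 tested genes. In the counts below, genes said to fall or rise are those called. The test was limma on log2(FPKM + 1) with a Benjamini-Hochberg adjusted p under 0.05 over all 12996 genes, and fold changes below are on that scale, with ± for the SE. The members' median log2 fold change was -0.92, against 0.01 for all genes tested, and members ranged from -1.47 (RRP9) to -0.18 (UBTF). In all 48 the serum libraries lay below both normal growth libraries, which held for 33.0% of tested genes. The count of calls was 35 without the filter on low values and between 43 and 47 with any 1 library left out.

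**Figure D1:**
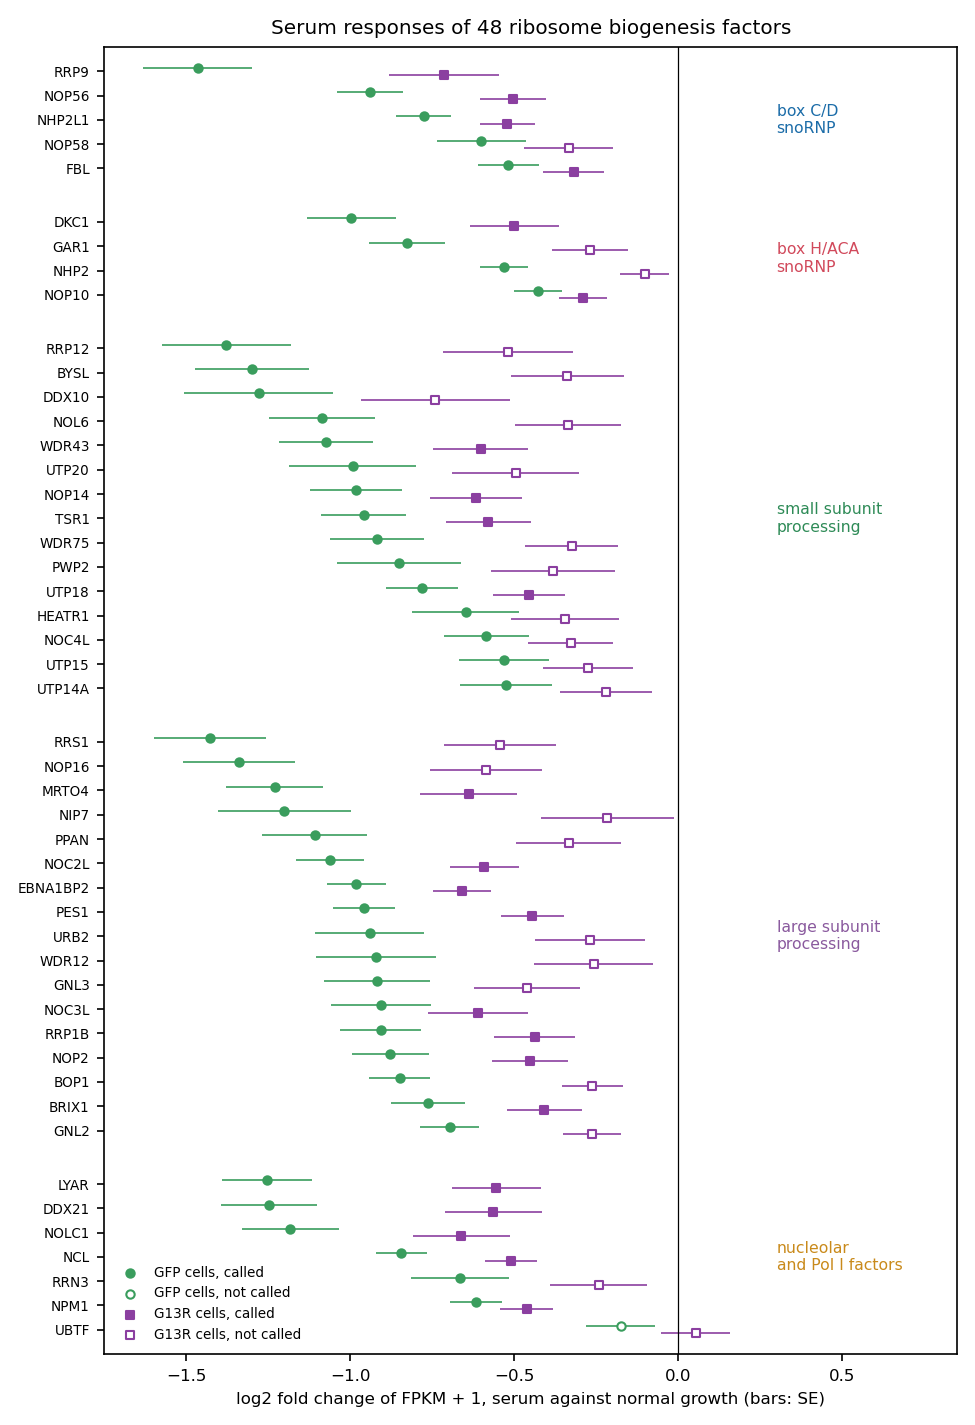
Log2 fold change of FPKM + 1 after serum against normal growth (x axis, with SE bars) for each of the 48 genes, in GFP cells (circles) and G13R cells (squares); filled symbols passed adjusted p under 0.05. In GFP cells 47 symbols are filled and in G13R cells 23, and the circle lies left of the square in each of the 48 genes.

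In G13R cells 23 of the 48 genes were called lower after serum and none higher, where 4.62% of all tested genes were called lower and 8.26% higher. By sign alone, the fold change lay below 0 in 47 of the 48, and in 5783 of the 12996 tested genes. The median was -0.45, against 0.04 for all genes, and members ranged from -0.74 (DDX10) to 0.05 (UBTF). In 45 members both serum libraries lay below both normal growth libraries, as in 26.4% of tested genes. The 23 were all among the 47 that fell in GFP cells. The count of 23 depended on the settings. It was 30 with only the compared libraries, 26 with the filter at 5 FPKM, 25 under median-ratio scaling and 18 under quantile normalization. Dropping limma's intensity trend left 5 calls, and dropping the low-value filter left 4. With G13R normal growth replicate 1 or 2 left out, the members' median was -0.474 or -0.409. With G13R serum replicate 1 or 2 left out, it was -0.476 or -0.424. Far fewer members passed with any of these 4 libraries left out, where 1 group held 1 library. The reason for this loss was not tested. The sizes of the fall in the 2 kinds of cells, which share no library, had a Pearson r of 0.679 and a Spearman rho of 0.633 across the 48 genes, as a description, since genes of the same libraries are not independent.

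The box C/D ribonucleoprotein methylates ribosomal RNA and, as the U3 particle, starts the cutting of the small subunit precursor. All 5 of its genes fell in GFP cells and 4 of 5 in G13R cells. RRP9, the U3-specific protein, stood at 72.2 and 78.7 FPKM in the GFP libraries of normal growth and at 33.5 and 21.2 in those of serum. In G13R cells RRP9 stood at 72.1 and 71.0, then at 44.0 and 42.4 FPKM. The groups in normal growth lay close together while serum left GFP cells the lowest, with changes of -1.47 ± 0.17 (adjusted p = 2.92e-04) in GFP and -0.71 ± 0.17 (adjusted p = 0.0217) in G13R cells. NOP56, a core scaffold protein of the particle, had 219 and 236 FPKM, then 130 and 107 in GFP cells, and 173 and 192, then 128 and 129 in G13R cells. Serum levels of NOP56 thus overlapped between the cells while normal growth levels did not, and the falls were -0.94 ± 0.10 and -0.50 ± 0.10. NHP2L1, which binds the bend in the guide RNA and also belongs to a spliceosomal particle, fell by 0.78 ± 0.08 and by 0.52 ± 0.08. FBL, the methyltransferase fibrillarin, moved least, from 226 and 262 to 161 and 179 FPKM in GFP cells and from 198 and 215 to 166 and 165 in G13R cells. Its changes were -0.52 ± 0.09 and -0.32 ± 0.09, the latter at an adjusted p of 0.0493. NOP58, the partner of NOP56, changed by -0.60 ± 0.14 in GFP and by -0.33 ± 0.14 in G13R cells, where it did not pass (adjusted p = 0.134).

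The box H/ACA particle converts uridine to pseudouridine and shares its proteins with telomerase. All 4 of its genes fell in GFP cells, and DKC1 and NOP10 fell in G13R cells. DKC1, the pseudouridine synthase dyskerin, stood at 122 and 130 FPKM, then 74.3 and 52.6 in GFP cells, and at 107 and 116, then 79.4 and 77.7 in G13R cells. Its change was -0.997 ± 0.136 and -0.50 ± 0.14 (adjusted p = 7.01e-04 and 0.0394). NHP2, a core protein of the same particle, went from 300.4 and 299.1 to 205 and 209 FPKM in GFP cells (-0.53 ± 0.07). In G13R cells NHP2 stood at 248 and 275, then 238 and 248 FPKM, and these libraries overlapped (-0.10 ± 0.07, adjusted p = 0.399). GAR1 changed by -0.83 ± 0.12 and -0.27 ± 0.12 and NOP10, the smallest protein of the particle, by -0.43 ± 0.07 and -0.29 ± 0.07, so that NOP10 had the smallest GFP change here and passed in both kinds of cells.

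Of the 15 small subunit factors, which form and dismantle the processome around the nascent precursor, all fell in GFP cells (median -0.96) and 4 in G13R cells (median -0.38): WDR43, NOP14, TSR1 and UTP18. RRP12, needed for late maturation and export of the subunit, stood at 43.8 and 49.0 FPKM, then 22.7 and 12.98 in GFP cells. In G13R cells RRP12 stood at 42.7 and 42.2, then 30.6 and 28.1 FPKM. All serum libraries lay below all normal growth libraries, and the change was -1.38 ± 0.20 in GFP (adjusted p = 8.90e-04) and -0.52 ± 0.20 in G13R cells (adjusted p = 0.112). BYSL, the late-acting factor bystin, had 78.8 and 71.5, then 37.0 and 24.1 FPKM in GFP cells, and 53.0 and 64.0, then 47.95 and 43.9 in G13R cells. Its level after serum was 40.7% of normal growth in GFP and 78.5% in G13R cells (-1.30 ± 0.17 and -0.34 ± 0.17). DDX10, an RNA helicase, changed by -1.28 ± 0.23 and -0.74 ± 0.23, with adjusted p = 0.00259 and 0.0575. WDR43, a member of the early-binding subcomplex with UTP15, WDR75 and HEATR1, went from 120 and 104 to 61.5 and 44.7 FPKM in GFP cells and from 80.7 and 77.7 to 47.8 and 56.2 in G13R cells. It fell by 1.07 ± 0.14 and by 0.60 ± 0.14. Its partners WDR75, HEATR1 and UTP15 fell by 0.92 ± 0.14, by 0.65 ± 0.16 and by 0.53 ± 0.14 in GFP cells and did not pass in G13R cells (adjusted p between 0.162 and 0.212). UTP14A, which activates a helicase of the processome, had the smallest mean change of the 15, at -0.53 ± 0.14 and -0.22 ± 0.14, and UTP15 and NOC4L were close to it.

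All 17 large subunit factors fell in GFP cells (median -0.94) and 8 in G13R cells (median -0.45). RRS1, which helps to place a small ribosomal RNA in the particle, stood at 60.3 and 68.2 FPKM, then 28.7 and 18.7 in GFP cells. In G13R cells RRS1 stood at 51.9 and 57.2, then 39.8 and 34.6 FPKM. Serum thus left 36.9% of the normal growth level in GFP and 68.1% in G13R cells (-1.43 ± 0.17, adjusted p = 3.72e-04, and -0.54 ± 0.17, adjusted p = 0.0628). MRTO4, a stalk protein homologue that holds its place during assembly, had 79.9 and 83.6, then 41.2 and 28.5 FPKM in GFP cells and 69.3 and 76.8, then 44.6 and 48.5 in G13R cells. It fell in both (-1.23 ± 0.15 and -0.64 ± 0.15). NOP16 changed by -1.34 ± 0.17 and -0.59 ± 0.17, and its G13R value was at the edge of the test (adjusted p = 0.0502). NIP7 stood at 52.6 and 55.7, then 30.3 and 17.4 FPKM in GFP cells, but at 51.6 and 58.3, then 50.8 and 43.7 in G13R cells. Its change was -1.20 ± 0.20 in GFP and -0.22 ± 0.20 in G13R cells (adjusted p = 0.515). PES1, BOP1 and WDR12, which work as 1 complex, had GFP changes of -0.96 ± 0.10, -0.85 ± 0.09 and -0.92 ± 0.18. In G13R cells PES1 fell by 0.445 ± 0.096, while BOP1 at -0.26 ± 0.09 and WDR12 at -0.26 ± 0.18 did not pass (adjusted p = 0.0921 and 0.378). EBNA1BP2 had the smallest adjusted p of all 48 in both kinds of cells, at -0.98 ± 0.09 (8.90e-05) and -0.66 ± 0.09 (0.00194). The GTPase gene GNL2 had the smallest mean of both changes in this role, at -0.70 ± 0.09 and -0.26 ± 0.09 (adjusted p = 4.98e-04 and 0.0801).

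Of the 7 nucleolar and RNA polymerase I factors, 6 fell in GFP cells and 5 in G13R cells. NPM1 stood at 3375 and 3519 FPKM, then 2079 and 2432 in GFP cells and at 2598 and 2647, then 1907 and 1899 in G13R cells. The fall was -0.62 ± 0.08 and -0.46 ± 0.08 (adjusted p = 5.35e-04 and 0.00590). DDX21, a helicase that links polymerase I transcription to processing, went from 117 and 105 to 55.6 and 37.9 FPKM in GFP cells and from 101 and 103 to 69.0 and 68.3 in G13R cells (-1.25 ± 0.15 and -0.56 ± 0.15). LYAR, a nucleolar growth regulator, and NOLC1, a phosphoprotein that chaperones the guide particles, fell by 1.255 ± 0.137 and by 1.18 ± 0.15 in GFP cells, and by 0.55 ± 0.14 and by 0.66 ± 0.15 in G13R cells. NCL went from 696 and 690 to 415 and 358 FPKM in GFP cells and from 540 and 547 to 381 and 382 in G13R cells. RRN3, which joins polymerase I to its promoter, fell in GFP cells (-0.67 ± 0.15) and stood at -0.24 ± 0.15 in G13R cells (adjusted p = 0.307). UBTF, which binds ribosomal DNA and keeps it open, was the 1 member that passed in neither. It stood at 58.7 and 56.8 FPKM, then 47.1 and 55.3 in GFP cells and at 47.4 and 53.6, then 53.5 and 51.1 in G13R cells, with changes of -0.18 ± 0.11 (adjusted p = 0.234) and 0.05 ± 0.11 (adjusted p = 0.778).

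**Figure D2:**
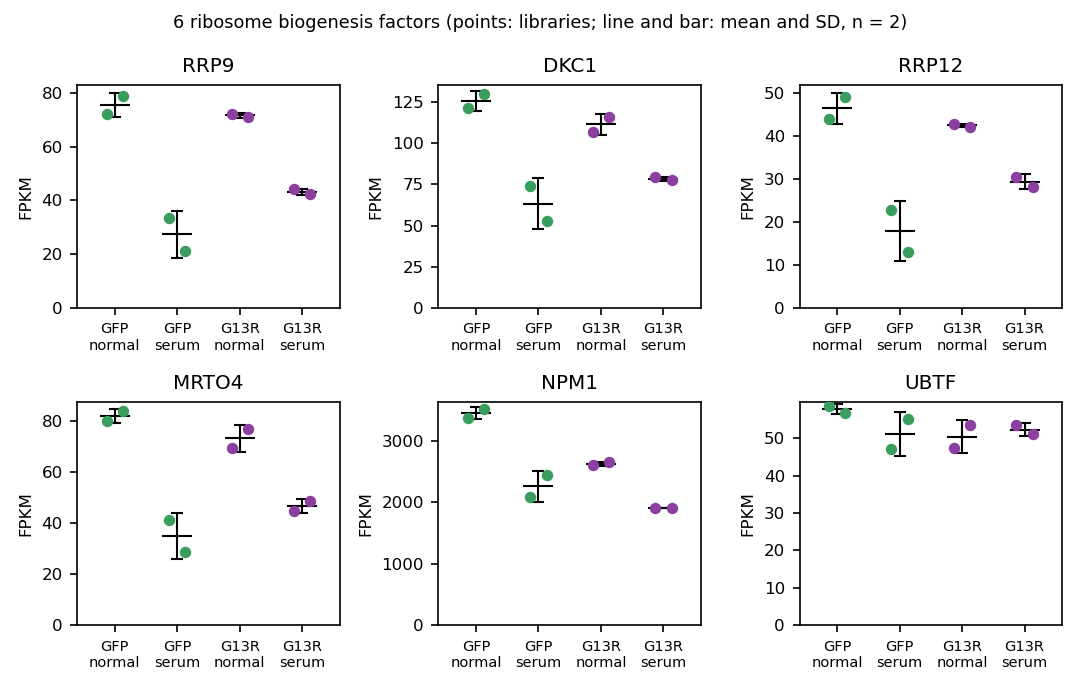
FPKM of 6 members in each library (points), with the mean and SD of each group (n = 2 libraries); every y axis starts at 0. RRP9, DKC1, RRP12 and MRTO4 are lowest in the GFP serum group, NPM1 is lowest in the G13R serum group, and the UBTF libraries lie between 47.1 and 58.7 FPKM.

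The 2 GFP serum libraries differed in how far the genes fell. In 43 of the 48, replicate 2 was below replicate 1, while 45.1% of all tested genes were. The median ratio of replicate 2 to replicate 1 was 0.756 over the members and 1.03 over all genes, and the members' ratio was 0.979 in the G13R serum group, 1.02 in the GFP and 1.06 in the G13R normal growth group. The 5 exceptions were UBTF, NPM1, FBL, NHP2L1 and NHP2, at ratios of 1.02 to 1.18. At the other end were DDX10 at 0.535, RRP12 at 0.571 and NIP7 at 0.572. The members' median GFP change was -1.1 without GFP serum replicate 1 and -0.75 without replicate 2, and with replicate 2 left out 43 of 48 still passed.

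**Figure D3:**
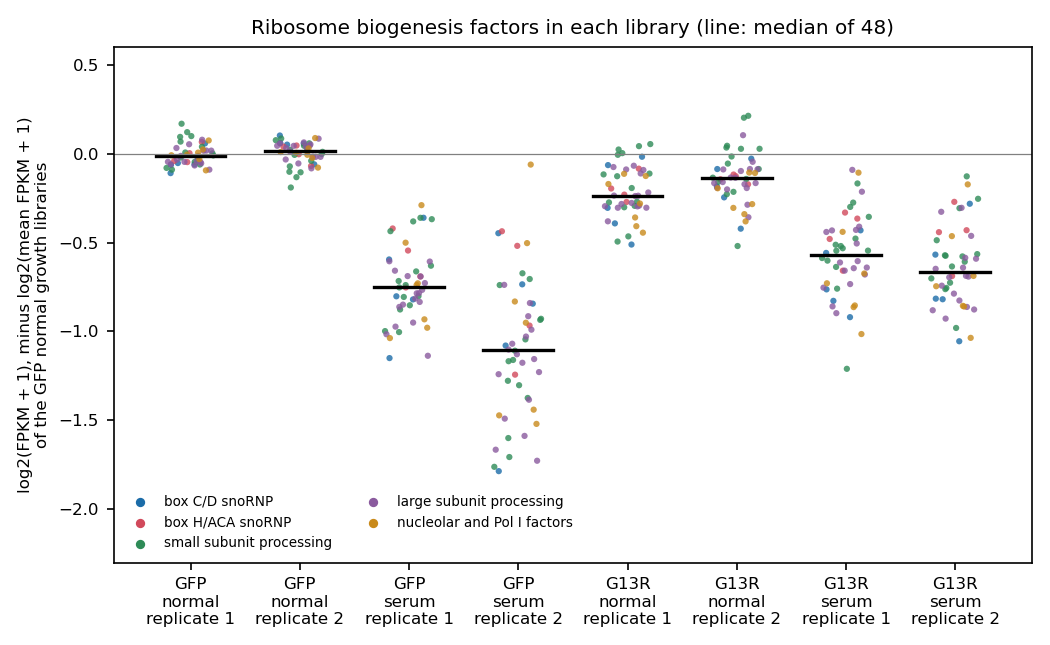
Level of each of the 48 genes in each library (y axis: log2(FPKM + 1) minus log2 of its mean FPKM + 1 in the GFP normal growth libraries; colours mark the roles, black lines the median). GFP serum replicate 2 has the lowest median and the widest spread, and the G13R serum libraries lie between the normal growth and the GFP serum medians.

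Whether the mutant altered the serum response was read from the difference between the 2 responses, G13R minus GFP. The difference lay above 0 in all 48 genes, that is, the change in G13R cells was less negative than in GFP cells (or, in UBTF, slightly above 0), and it lay above 0 in 56.1% of all genes. The members' median difference was 0.47 and the range 0.14 (NOP10) to 0.98 (NIP7), with a median of 0.04 over all genes. No member was called, and limma called 0.0% of all genes in this contrast; 28 members had an unadjusted p under 0.05, as had 11.8% of all genes. The smallest unadjusted p belonged to BOP1 (0.59 ± 0.13, adjusted p = 0.261), NHP2 (0.43 ± 0.11) and BYSL (0.96 ± 0.24); NHP2, BYSL and PES1 shared an adjusted p of 0.266. This reading rested on the GFP serum libraries. Without GFP serum replicate 1, which left replicate 2 alone and assumed to vary like the other groups, the median difference was 0.61. Without replicate 2 the median difference was 0.30.

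G13R and GFP cells were also compared directly. In normal growth 44 of the 48 genes were lower in G13R cells by the sign of the fold change (64.0% of all genes), and none was called (0.00769% of all genes were called lower and 0.0385% higher). The median was -0.18 over the members and -0.07 over all genes. It was -0.21 over cytosolic and -0.18 over mitochondrial ribosomal protein genes, and -0.15 over other ribosome assembly genes. A shift of this size was thus not particular to the members. In 38 members both G13R libraries lay below both GFP libraries, as in 34.3% of tested genes, and in UTP15 and HEATR1 above them (14.4%). The smallest p belonged to NHP2L1, with 220 and 238 FPKM in GFP and 160 and 171 in G13R cells (-0.47 ± 0.08, adjusted p = 0.0838), then NPM1 (-0.39 ± 0.08, adjusted p = 0.107) and NCL (-0.35 ± 0.08, adjusted p = 0.134). Under quantile normalization the members' median was -0.044, and under median-ratio scaling -0.12. Leaving out GFP serum replicate 1 or 2, which enter this contrast only through the shared spread, left the median at -0.184. At an unadjusted p under 0.05 the count was 12 members, with 15.1% of all genes.

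After serum the sign was the other way in most genes. Of the 48, 42 were higher in G13R than in GFP cells, as were 45.0% of all genes, and none was called (0.331% of all genes were called higher and 0.492% lower). The median was 0.33, against -0.03 over all genes. Both G13R serum libraries lay above both GFP serum libraries in 32 members, as in 22.6% of tested genes, and below them in 3, NHP2L1, NOP10 and NPM1 (29.4% of tested genes). NIP7 had the smallest adjusted p (1.00 ± 0.20, adjusted p = 0.0547), and RRP9 (0.68 ± 0.17) and DDX21 (0.57 ± 0.15) followed at adjusted p = 0.0758 and 0.0843. At an unadjusted p under 0.05 there were 29 members, with 20.8% of all genes. Without GFP serum replicate 1 the members' median was 0.506, and without replicate 2 it was 0.163. These comparisons share libraries with the serum responses above and add no separate evidence to them.

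**Figure D4:**
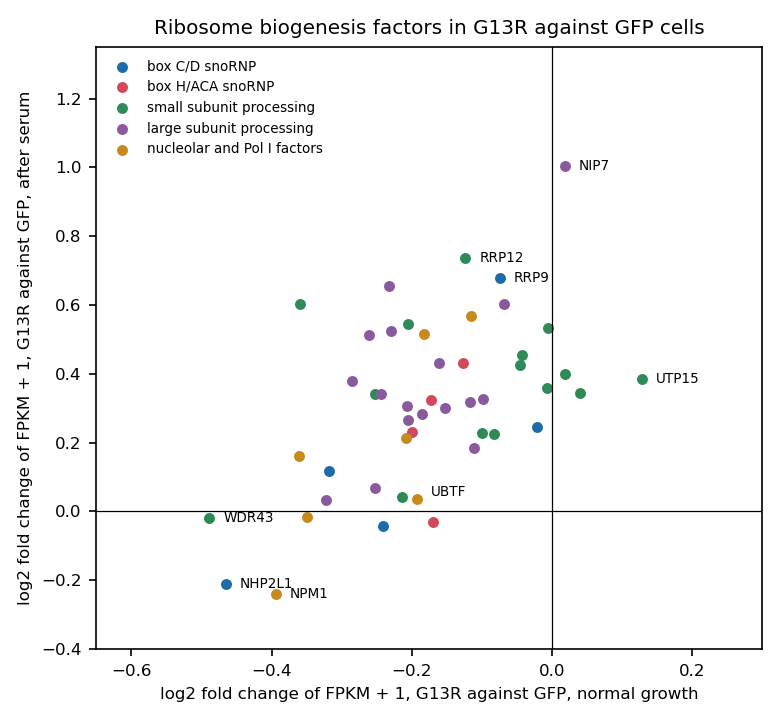
Log2 fold change of FPKM + 1 of G13R against GFP cells in normal growth (x axis) and after serum (y axis) for the 48 genes, coloured by role. Most points lie to the upper left, lower in normal growth and higher after serum, with NIP7 the highest at 1.00 and NPM1 and NHP2L1 among those below 0 on both axes; no point passed the test on either axis.

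The other genes of the pathway were read from a list of 80 further ribosome assembly genes, all of which were tested. In GFP cells 73 fell after serum (91.2%, against 15.7% of all genes) and none rose (median -0.66). In G13R cells 18 fell (22.5%, against 4.62% of all genes) and none rose (median -0.32). The G13R count was 1 or 2 without any 1 of the 4 G13R libraries and 31 without either GFP serum library. PNO1, which masks the cutting site at the end of the small subunit RNA, had a GFP change of -1.42 ± 0.14, RPF2, the partner of RRS1, -1.23 ± 0.19, and the helicase gene DHX37 -1.14 ± 0.19. No gene of this list had a GFP change above 0. Closest to 0 were NVL at -0.04 ± 0.17, ZNHIT3 at -0.14 ± 0.10 and NOP9 at -0.22 ± 0.15, none of which passed. No gene of the list was called in the difference of responses, where 78 of 80 lay above 0 (median 0.38).

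Ribosomal protein genes were set beside the members: the cytosolic ones, whose products these factors help to assemble, and the mitochondrial ones, whose products are assembled in mitochondria. Of all genes tested, 15.7% were called lower and 14.9% higher in GFP cells, and 4.62% lower and 8.26% higher in G13R cells. Of 86 tested cytosolic ribosomal protein genes, 5 fell (5.81%) and 1 rose in GFP cells (median -0.01). In G13R cells 3 of them fell (3.49%) and 1 rose (median 0.05). Of 76 mitochondrial ribosomal protein genes, 39 fell (51.3%) and 2 rose in GFP cells (median -0.35), and 9 fell (11.8%) in G13R cells (median -0.19). MYC stood at 110 and 98.9 FPKM, then 95.7 and 71.9 in GFP cells and at 100.3 and 100.8, then 120 and 110 in G13R cells, and was not called in either (adjusted p = 0.0718 and 0.342).

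Changes of members with and without an E-box overlapped. The 21 with it had a median GFP change of -0.96 (-1.47 to -0.43) and the 19 with a promoter entry without it -0.92 (-1.34 to -0.18). In G13R cells the medians were -0.46 and -0.35. Over all tested genes, 21.2% of those with an E-box and 15.7% of those without were called lower in GFP cells.

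Several of these genes also hold genes of small nucleolar RNAs, the guides of the box C/D and box H/ACA particles. In GENCODE release 29, 8 of the 47 members found there had a small nucleolar RNA gene inside their span on the same strand (17.0%), against 214 of 11837 tested coding genes (1.81%). They were NOP56, NOP58, DKC1, WDR43, TSR1, GNL3, PPAN and NCL, with 27 such RNAs in all. All 8 fell in GFP cells, where 97.9% of the 48 members and 15.7% of all tested genes were called lower. In G13R cells 5 of the 8 fell (NOP56, DKC1, WDR43, TSR1 and NCL), where 47.9% of members and 4.62% of all tested genes did. Values of a few members may be uncertain, because in GENCODE release 29 their transcripts share sequence with others. The FPKM values were made on hg19 with an annotation that is not given. The shared sequence may therefore differ from what the reads were mapped to. Of the 50-base windows of the longest coding transcript, 89.7% in PWP2, 87.0% in PPAN, 83.3% in NOP2, 44.4% in NPM1 and 26.9% in RRN3 recur in transcripts of other genes, among them the PPAN read-through gene and NPM1 pseudogenes. RRN3 lies wholly within the span of PDXDC1, NOP16 within that of ARL10 and PPAN within that of its read-through gene. NOP14 overlaps its antisense gene NOP14-AS1, and several other members overlap further genes in part. Whether counting used strand is not stated in the labels.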

How the data were processed

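The authors deposited 1 table of FPKM values per gene and library, made with TopHat2 2.0.13 and Cufflinks 2.2.1 on hg19, with the fly build BDGP5 also named, per the submitters' processing notes. The annotation, and whether reads were counted by strand, are not given in the sources used here. Each column was assigned to a library through its name. The letter C is not explained and was taken to mean normal growth, the one condition in the labels beside serum; every serum comparison rests on this reading. FPKM keeps no read counts: among genes under 0.25 FPKM only 13.2 to 16.6% of values stood at the commonest ratio between libraries, so depth is unknown and values carry no counting interval.

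limma 3.58.1 (R 4.3.3) fitted log2(FPKM + 1) with an intensity trend and 1 mean per group, for genes that reached 1 FPKM in 2 or more libraries. The 8 libraries were fitted together, leaving 4 residual degrees of freedom, and p-values were Benjamini-Hochberg adjusted over all genes. The log2(FPKM + 1) scale understates changes of low genes. The fit was also run on simulated data with independent genes and the same spread in every group. That setting differs from the members, most of which shifted together between the 2 GFP serum libraries.

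Members and lists were chosen with earlier results of these data known. Members named were, per role, the 3 with the largest and the 1 with the smallest mean serum change, and the 3 of smallest p in each comparison of G13R with GFP cells; of the further list, the 3 largest changes each way; and MYC. NOP58, WDR75, HEATR1, UTP15, PES1, WDR12, EBNA1BP2 and RRN3 were added after their values were seen. So were UTP20, URB2, NOP14, TSR1, UTP18 and NOC4L, which are named in passing. Members named only for promoter letters, small nucleolar RNAs, shared sequence or overlap were also outside this rule. Alternatives were a pseudocount of 0.1, no filter or 5 FPKM, median-ratio and quantile scaling, only the compared libraries, no trend, the replicate number as a block, and each library left out. Promoters came from RefSeq, small nucleolar RNAs and transcripts from GENCODE release 29.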

Additional observations from a re-analysis of the deposited data

How the results depend on the processing

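In GFP cells the members' count of calls stayed within 1.5 times 47 under every alternative that kept 2 libraries a group. The members' median was between -0.958 and -0.863 where no single library was left out. It was -1.1 without GFP serum replicate 1 and -0.752 without replicate 2. Both shifts lay within the spread of replicates, which cannot judge them because it comes from the gaps between the same libraries. Of 400 values for the 25 named members, 393 kept direction and side of the threshold. In G13R cells the members' count was 4 with no filter, 5 with no trend and 2 to 33 with 1 library left out. Of those 25 members' 400 values, 71 lost and 18 gained a call, and UBTF ranged from -0.0337 (without G13R normal growth replicate 1) to 0.14 with a library left out. The 80 other assembly genes had 46 GFP calls with no filter, and in G13R cells 28 under median-ratio scaling, 2 with no filter, 2 with no trend, 31 with only the compared libraries and 1 to 31 with a library left out. For G13R against GFP in normal growth, members called were 1 under quantile normalization and 0 to 3 with a library left out, and their median was -0.12 under median-ratio scaling and -0.044 under quantile normalization. After serum, 1 member and 4 other genes passed at the 5 FPKM filter, 2 other genes under quantile normalization, and 0 to 32 members and 0 to 28 others with a library left out. The members' median difference of responses was 0.298 to 0.607 with a library left out. Its lowest value came without GFP serum replicate 2 and its highest without replicate 1.

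Replicate numbers are shared between groups, but deviations of same-numbered libraries correlated at 0.0169 to 0.122 over the 6 pairs of groups, so the numbers were not taken to pair the samples. With the replicate block 47 and 23 members fell in GFP and G13R cells, 2 were called in normal growth, 1 member and 2 other genes were called after serum, and none in the difference. All fold changes lack read depth, so a missing call does not show equal levels.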
